A study of Mus musculus with 12 samples.

Results

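The comparison asked how the inguinal fat of obese mice given rosiglitazone differed from that of lean mice given vehicle. The inguinal white adipose tissue (iWAT) libraries labelled ob/ob-Rosi (2) were set against those labelled WT-Veh (2), which makes 4 of the 12 libraries of the series. Members were chosen by these labels and by limits of 700 to 22000 UMIs, 200 to 6000 genes and under 25% mitochondrial UMIs per barcode, which kept 54074 cells. A UMI (unique molecular identifier) counts an RNA molecule once, however often PCR copied it. WT-Veh mice were lean C57BL/6 males and ob/ob-Rosi mice were obese Lepob/Lepob males, 12 weeks old. Rosiglitazone at 30 mg/kg, or its methylcellulose vehicle, was gavaged in the morning and the evening over 3 days. Genotype and drug both differ between these groups, so that their effects cannot be told apart here, and the values of the 2 iWAT libraries labelled ob/ob-Veh (obese mice on vehicle, same age and schedule) are given beside them. The stromal vascular fraction (SVF), the cells that sink once collagenase-digested fat has shed its floating adipocytes, was read by 10x Genomics 3′ single-cell RNA sequencing.

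Rosiglitazone is a thiazolidinedione that binds and activates PPARγ, the nuclear receptor that drives adipocyte differentiation and that switches on genes of fatty acid uptake, storage and oxidation. Ob/ob mice make no working leptin, the hormone by which fat signals its stores to the brain, and become obese. Apart from adipocytes, PPARγ acts in preadipocytes, in the capillary endothelium that passes fatty acids to fat cells, and in macrophages that take up lipid. The ob mutation changes the leptin protein and leaves the transcript in place, so a count of Lep 3′ ends does not read the allele.

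The 4 libraries held 9674 to 17500 kept cells, with a median of 1132 to 4671 UMIs per cell and 28375356 to 66315901 UMIs in all. Library pairs among the 6 iWAT libraries shared 17 to 70 barcodes, at most 0.625% of either. The library labelled WT-Veh 1 stood apart. Clusters without a class name, most of them led by naive lymphocyte or ribosomal-region genes and low in UMIs, held 44.42% of its cells, against 0.97% in WT-Veh 2 and 0.90% and 0.91% in ob/ob-Rosi 1 and 2. It also held many T and B cells and few stromal cells. Some results are therefore also given without it, others only with it, and the WT-Veh replicates are shown singly. Some known PPARγ targets were lower in the libraries labelled ob/ob-Rosi than in those labelled WT-Veh, a comparison in which genotype differs too. Over whole libraries Pdk4, a mitochondrial kinase that spares glucose, stood at 22.1 and 23.4 CPM (UMIs scaled to the same total in each library or class) in WT-Veh, 5.44 and 7.51 CPM in ob/ob-Rosi, and 32.1 and 24.8 CPM in ob/ob-Veh. Adipoq, the adipocyte hormone adiponectin that thiazolidinediones raise, stood at 8.42 and 5.24 CPM in WT-Veh against 2.09 and 2.11 CPM in ob/ob-Rosi, with 0.433 and 2.71 CPM in ob/ob-Veh. Lep stood at 1.69 and 1.66 CPM in WT-Veh and at 3.42 and 2.97 CPM in ob/ob-Rosi, with 0.157 and 0.408 CPM in ob/ob-Veh. Other values stood higher in ob/ob-Rosi than in ob/ob-Veh. Fabp4, a PPARγ target singled out after its values were seen, stood over whole libraries at 17360 and 7932 CPM in ob/ob-Rosi against 376.9 and 4495 CPM in ob/ob-Veh, with 9944 and 12640 CPM in WT-Veh. The summed preadipocyte markers, Fabp4, Cd36, Lpl and Pparg among them, stood at 33660 and 22190 CPM in ob/ob-Rosi against 6482 and 11950 CPM in ob/ob-Veh. Endothelial cell-like cells, in which Fabp4 is abundant, made up 20.75% and 10.90% of kept cells in ob/ob-Rosi and 1.40% and 8.16% in ob/ob-Veh. The part of the cell mix in these whole-library values was not tested. Xist, absent from male cells, was at or under 0.143 CPM in the 4 libraries. Groups are named by their labels throughout, and every direction below is that of the labelled libraries.

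Genes were compared on UMIs summed per library and class, with the quasi-likelihood test of edgeR. It was fitted over the 6 iWAT libraries, less any with under 20 cells of the class. Genes were called where the p adjusted by Benjamini and Hochberg over all genes tested did not exceed 0.05 and the change reached 1.1-fold. Fold changes are log2 ratios of ob/ob-Rosi to WT-Veh, and positive values are higher in ob/ob-Rosi. Their standard error (SE) was derived from the test statistic, so it adds nothing to the p. Genes whose 4 libraries did not overlap in CPM are counted beside the calls. Class names carry the ending -like, because transcripts alone set them.

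Preadipocyte-like cells were more frequent in both ob/ob-Rosi libraries than in any other, although no class passed the test. They made up 1.11% and 6.37% of the kept cells in WT-Veh 1 and 2 and 15.96% and 16.03% in ob/ob-Rosi 1 and 2. The ob/ob-Veh libraries held 0.07% and 0.78%, and those low shares depended on the clustering. At clustering resolution 2, a preadipocyte-like cluster led by Col5a3 and Adam12 held 164 cells of ob/ob-Veh 1 and 497 of ob/ob-Veh 2. WT-Veh 1 had 50 cells in that cluster, WT-Veh 2 had 100, ob/ob-Rosi 1 had 725 and ob/ob-Rosi 2 had 505. At the resolution used for the shares, 24.95% and 26.04% of ob/ob-Veh cells had no class name. The log2 difference in preadipocyte-like cells was 2.10 (SE 1.28, adjusted p = 0.41, edgeR on cell numbers). It was 2.18 at resolution 2 and 1.33 without WT-Veh 1. Cycling-like cells, a small myeloid cluster led by genes of mitosis such as Mki67 and Top2a, were also most frequent in ob/ob-Rosi, at 0.0703% and 0.325% of kept cells in WT-Veh, 1.11% and 1.06% in ob/ob-Rosi and 0.375% and 0.18% in ob/ob-Veh (log2 2.46, SE 1.32, adjusted p = 0.341). That difference was 0.77 at clustering resolution 2 and −0.50 with cells assigned to classes singly. T-like cells were the reverse, with 17.39% and 4.71% in WT-Veh against 2.49% and 1.57% in ob/ob-Rosi (log2 −2.45, SE 1.30, adjusted p = 0.341, and −1.22 without WT-Veh 1). B-like cells stood at 10.95% and 1.15% against 0.81% and 0.42% (log2 −3.30, SE 1.35, adjusted p = 0.279). With the cells of named classes as the total, the B-like difference was −4.07 and passed the test (adjusted p = 0.0361). With all kept cells as the total, it was −0.91 without WT-Veh 1.

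**Figure D1:**
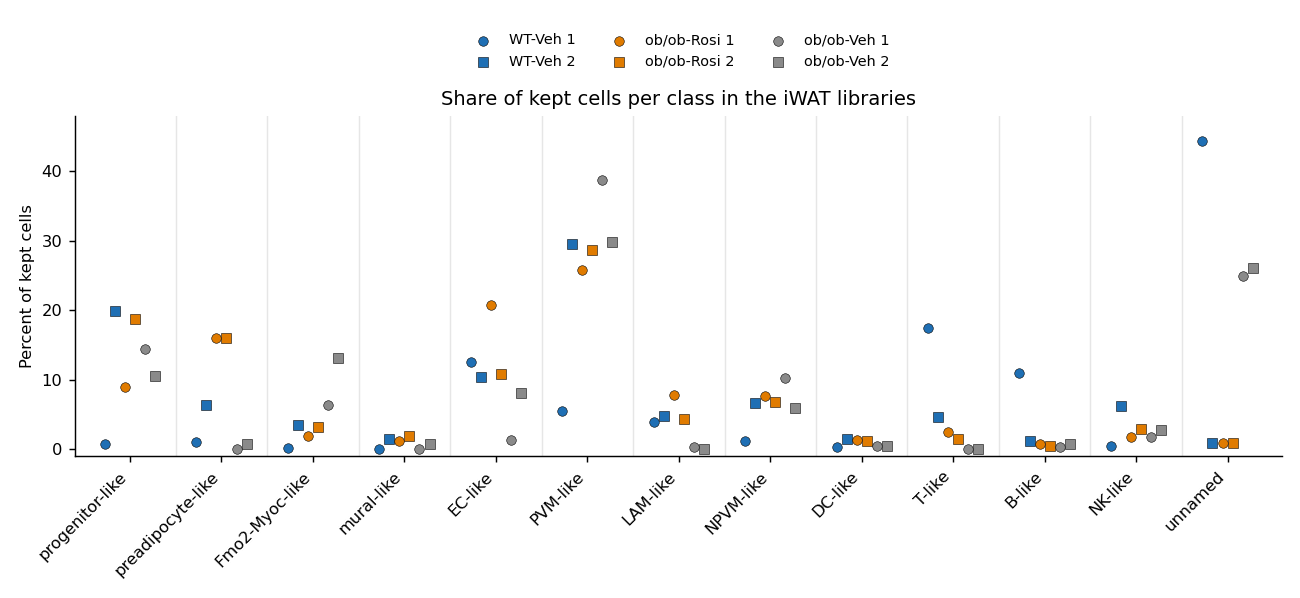
Percent of kept cells (vertical axis) in each class (horizontal axis), with 1 point per iWAT library, colours for the groups and circles and squares for replicates 1 and 2. WT-Veh 1 lies far from WT-Veh 2 in progenitor-like cells (0.73% and 19.87%), PVM-like cells (5.58% and 29.49%) and unnamed cells (44.42% and 0.97%), and of the classes plotted, preadipocyte-like cells are the one in which both ob/ob-Rosi points (15.96% and 16.03%) lie well above all others.

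The spread within WT-Veh was wider than most differences between the groups. Progenitor-like cells made up 0.73% and 19.87% of the WT-Veh libraries and 9.01% and 18.77% of the ob/ob-Rosi libraries, and the log2 difference of 0.43 became −0.52 without WT-Veh 1. Perivascular macrophage-like (PVM-like) cells stood at 5.58% and 29.49% against 25.77% and 28.65%. Endothelial cell-like (EC-like) cells overlapped at 12.52% and 10.43% against 20.75% and 10.90%. Lipid-associated macrophage-like (LAM-like) cells overlapped at 4.00% and 4.80% against 7.83% and 4.42%, all above the 0.31% and 0.12% in ob/ob-Veh. The authors proposed that such lipid-rich macrophages of ob/ob-Veh fat had floated off with the adipocytes, outside the SVF. Their flow cytometry found fewer lipid-associated macrophages in ob/ob iWAT with rosiglitazone than with vehicle. The ob/ob-Veh shares here may therefore not stand for the tissue. Among PVM-like cells, libraries of the same replicate number shared clusters. A cluster led by Ccl8 and Mrc1 held 926 of the 952 cells of WT-Veh 1 and 2349 of the 2493 of ob/ob-Rosi 1, while other clusters, led by Mgl2 and Vcam1 and by Fcna and Ltc4s, held 1008 and 1832 of the 2901 in WT-Veh 2 and 2361 and 2423 of the 5014 in ob/ob-Rosi 2. Shares of a library add up to 100%, so a class that is plentiful lowers the others.

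EC-like cells gave the most called genes, 20 of 12222 tested, of which 7 were higher in ob/ob-Rosi (0.0573% of the genes tested) and 13 lower (0.106%), while 3.34% and 4.24% had an unadjusted p under 0.05. The genes that fell included Pdk4, Lipg, an endothelial lipase that splits lipoprotein phospholipids, and Ephx2, a hydrolase of fatty acid epoxides. Those that rose included Cd200, an endothelial membrane protein that restrains myeloid cells, and Nepn, a small leucine-rich proteoglycan. EC-like cells numbered 2136 and 1026 in WT-Veh 1 and 2 and 2007 and 1908 in ob/ob-Rosi 1 and 2. The ob/ob-Veh libraries held fewer, with 101 and 588 such cells and 275708 and 1470751 UMIs in them.

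Pdk4 (chr6:5483351-5496309, GRCm38) stood at 68.3 and 61.6 CPM in the EC-like cells of WT-Veh 1 and 2, at 5.91 and 2.24 CPM in ob/ob-Rosi 1 and 2, and at 43.5 and 22.4 CPM in ob/ob-Veh. All 4 libraries of the other labels thus lay above both ob/ob-Rosi libraries, and the log2 fold change against WT-Veh was −3.94 (SE 0.463, adjusted p = 0.029, edgeR). Lipg stood at 70.9 and 43.9 CPM, 6.37 and 2.89 CPM, and 65.3 and 19.0 CPM in the same order of labels (log2 −3.59). Ephx2 stood at 18.7 and 22.5 CPM in WT-Veh and 2.12 and 2.10 CPM in ob/ob-Rosi (log2 −3.27). In each of these lipid and fuel genes, both ob/ob-Rosi libraries were the lowest of the 6.

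Rdh16, a retinol dehydrogenase, had the largest called decrease, from 11.1 and 17.9 CPM in WT-Veh to 0.554 and 0.395 CPM in ob/ob-Rosi (log2 −4.84, SE 0.644, adjusted p = 0.029). Its level in ob/ob-Rosi rests on 9 UMIs against 154 in WT-Veh, a ratio of WT-Veh to ob/ob-Rosi of 30.6 (exact 95% interval 15.7 to 68.1, counting error only). Npr3 (chr15:11839896-11907287), the receptor that clears natriuretic peptides, was the most abundant of the called genes and fell from 511 and 614 CPM to 97.2 and 109 CPM (log2 −2.45, SE 0.319, adjusted p = 0.029), while ob/ob-Veh held 355 and 437 CPM. Others that fell were Ak1, an adenylate kinase (log2 −2.99), Ptger2, a prostaglandin E2 receptor (−2.45), Specc1 (−2.44), Ppm1l, a protein phosphatase (−2.35), Slit3, a secreted guidance ligand (−2.28), Smad6, an inhibitor of BMP signalling (−1.98), and Armcx4 (−1.88).

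Nepn (chr10:52388972-52404625) rose the most, from 0.445 and 0.515 CPM in WT-Veh to 18.6 and 8.15 CPM in ob/ob-Rosi, with 43.5 and 27.9 CPM in ob/ob-Veh. WT-Veh rests on 5 UMIs and ob/ob-Rosi on 264, a ratio of 29.6 (exact 95% interval 12.5 to 91.8, counting error only), and the fitted log2 fold change was 4.74 (SE 0.647, adjusted p = 0.029). Cd200 rose from 62.9 and 79.6 CPM to 343 and 255 CPM, beside 439 and 481 CPM in ob/ob-Veh (log2 2.07, SE 0.319, adjusted p = 0.0401). The others that rose were Cdh23, a cadherin (log2 3.28), Hhipl1 (2.60), Gm12002 (2.53), Btbd3 (2.34) and Stxbp6, a regulator of membrane fusion (2.11). For 6 of these 7 genes the ob/ob-Veh libraries lay with ob/ob-Rosi, above both WT-Veh libraries. Hhipl1 was the exception, with 3.63 and 4.76 CPM in ob/ob-Veh against 3.34 and 4.98 CPM in WT-Veh and 24.5 and 26.4 CPM in ob/ob-Rosi. Its ob/ob-Veh values rest on very few of the 275708 and 1470751 UMIs of these cells, so the exception is uncertain.

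**Figure D2:**
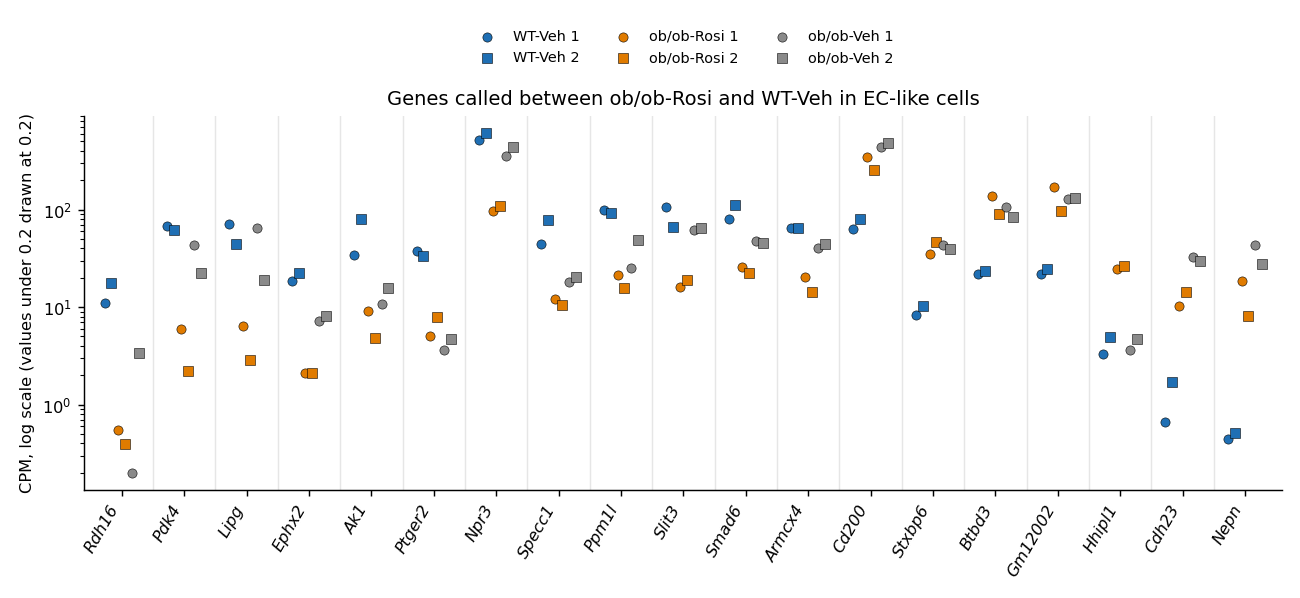
CPM on a log axis (vertical) of 19 of the 20 called genes (horizontal, ordered by fold change) in EC-like cells, with 1 point per iWAT library. The ob/ob-Rosi points lie below both WT-Veh points in the 12 genes on the left and above them in the 7 on the right, and the ob/ob-Veh points vary in place from gene to gene (Pdk4 43.5 and 22.4 CPM, Cd200 439 and 481 CPM).

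The PPAR targets, a list of 54 genes of lipid handling, stood low as a group in the EC-like cells of ob/ob-Rosi, although abundant members such as Fabp4 and Gpihbp1 overlapped between the groups. Of 48 tested, 2 fell, Pdk4 among them, and none rose; 31 lay lower in both ob/ob-Rosi libraries than in either WT-Veh library and 1 lay higher, where 15.3% and 15.6% of all genes tested did so. The median log2 fold change was −0.71, against −0.02 over all genes, and it was −0.92 without WT-Veh 1 and −0.56 without WT-Veh 2. Fabp4, the carrier of fatty acids that fills these cells, overlapped at 32390 and 60920 CPM in WT-Veh and 64470 and 47100 CPM in ob/ob-Rosi (log2 0.26, SE 0.691, adjusted p = 1.00, and −0.13 without WT-Veh 1). Gpihbp1, which anchors lipoprotein lipase to the capillary wall, also overlapped (log2 −0.03). Cd36, the fatty acid translocase, stood at 9560 and 7691 CPM against 7437 and 3493 CPM (log2 −0.65, adjusted p = 1.00). Angptl4, a secreted inhibitor of lipoprotein lipase, and Rbp7, an endothelial retinol-binding protein, were singled out after their values were seen. Angptl4 stood at 1204 and 2168 CPM against 287 and 606 CPM (log2 −1.93, SE 0.449, adjusted p = 0.126), and Rbp7 at 2218 and 4232 CPM against 886 and 433 CPM (log2 −2.28, SE 0.495, adjusted p = 0.109).

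Different clusters held most of the EC-like cells of each of the 4 compared libraries. In WT-Veh 1, 79.3% of the cells lay in a cluster led by Apold1, Aqp7 and Npr3, and in WT-Veh 2, 71.7% lay in one led by Rbp7, Tinagl1 and Npr3. In ob/ob-Rosi 1, 72.9% lay in a cluster led by Cdh5, Itga6 and Cav1, and in ob/ob-Rosi 2, 63.5% lay in one led by Aqp1, Tmem252 and Cldn5. At resolution 2 the ob/ob-Rosi libraries shared clusters, with 1215 and 977 cells in one and 729 and 871 in another. The WT-Veh libraries stayed mostly apart there, with 2247 and 3 cells in one cluster and 211 and 915 in another. The median UMIs per EC-like cell were 1335.5 in WT-Veh 1, 3938.5 in WT-Veh 2, and 4085 and 2743.5 in ob/ob-Rosi 1 and 2. A change within the same cells and a change in the mix of endothelial cells cannot be told apart in the sums. T cell markers moved with the groups in this class: all 10 tested were lower in ob/ob-Rosi without overlap, beside 15.3% of all genes, with a summed level of 681 and 54.1 CPM in WT-Veh against 13.2 and 16.4 CPM, and their part in the results was not tested. All 20 calls were also made, in the same direction, without WT-Veh 1, without WT-Veh 2 and by DESeq2, but 3 genes were called without ob/ob-Rosi 2, 1 without ob/ob-Rosi 1 and 0 when the fit held only the 4 libraries of the compared groups (with an unadjusted p under 0.05, 370 higher and 446 lower). With doublets removed 10 genes were called, and with cells thinned to 700 UMIs 6 were, 5 of them among the 20.

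In preadipocyte-like cells PPAR targets and adipocyte genes lay lower in ob/ob-Rosi, but no gene was called. Of 11891 genes tested, 216 had an unadjusted p under 0.05 and were higher (1.82%) and 297 were lower (2.5%), and DESeq2 called 26. The class held 189 and 627 cells in WT-Veh and 1544 and 2805 in ob/ob-Rosi, and ob/ob-Veh 1 was dropped from the fit with 5 cells, so that 5 libraries entered it. A cluster led by Egfros and Thbs1 held 77.2% and 16.4% of those of WT-Veh 1 and 2 and 62.6% and 17.3% of those of ob/ob-Rosi 1 and 2. Another, led by Ndufa4l2 and Cxcl14, held 20.6%, 48.8%, 37.0% and 77.8% in the same order. The former had a median of 1964 UMIs per cell, with AY036118, mt-Nd4l and mt-Atp8 among its leading genes, and the latter one of 4309. The genes with the lowest p were Arxes1 and Arxes2, PPARγ targets needed for adipogenesis, Car3, a carbonic anhydrase of mature adipocytes, and Nnat, Reep6, Car4 and Pdk4. Arxes1 stood at 44.9 and 66.2 CPM in WT-Veh 1 and 2 and at 1.39 and 3.64 CPM in ob/ob-Rosi 1 and 2 (log2 −4.45, SE 0.474, adjusted p = 0.119, edgeR). Its neighbour Arxes2 stood at 120 and 196 CPM against 3.88 and 11.5 CPM (log2 −4.37, SE 0.532, adjusted p = 0.13). These near-identical genes lie side by side on chromosome X and can share reads, so the split between them is uncertain. The 56 preadipocyte-like cells of ob/ob-Veh 2 held 0 UMIs of either.

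Car3 stood at 400 and 249 CPM in WT-Veh against 11.8 and 27.5 CPM in ob/ob-Rosi and 207 CPM in ob/ob-Veh 2 (log2 −4.07, SE 0.484, adjusted p = 0.13). Pdk4 stood at 65.3 and 70.7 CPM against 13.7 and 17.7 CPM, with 20.02 CPM in ob/ob-Veh 2 (log2 −2.12, SE 0.294, adjusted p = 0.131). That ob/ob-Veh 2 value rests on very few UMIs, since these cells held 149833 UMIs in all. Nnat had a log2 fold change of −4.00, Reep6 of −2.93 and Car4 of −2.47. None of these genes overlapped between the groups. The cluster led by Fabp4, Nnat, Arxes2, Car3 and Reep6 came mostly from 1 library, with 214 of its 237 cells in WT-Veh 2, which made up 34.1% of the preadipocyte-like cells there. Without it the log2 fold change of Arxes1 was −2.98, that of Car3 −2.97, that of Nnat −2.94 and that of Pdk4 −1.94.

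Of 47 PPAR targets tested in preadipocyte-like cells, 30 lay lower in ob/ob-Rosi without overlap and 3 higher, against 14.0% and 14.6% of all genes tested, and the median log2 fold change was −0.90 against −0.01 over all genes. The median was −1.07 without WT-Veh 1 and −0.81 without WT-Veh 2. The list counts and the fold changes below are given with the cluster led by Fabp4 and Nnat kept. The list was not counted without that cluster, which came mostly from WT-Veh 2. Fabp4 stood at 14980 and 29540 CPM in WT-Veh, 2855 and 3300 CPM in ob/ob-Rosi and 2623 CPM in ob/ob-Veh 2 (log2 −2.86). Angptl4 stood at 812 and 977 CPM against 136 and 269 CPM (log2 −2.17). Cd36, Lpl (lipoprotein lipase) and Pparg itself had log2 fold changes of −2.86, −1.11 and −0.71, but these and Fabp4 were among the markers that named the class, so their levels are not independent of the naming. Plin2, the coat of small lipid droplets, stood at 806 and 927 CPM against 242 and 453 CPM (log2 −1.34). Angptl4, Plin2, Cd36 and Pparg were singled out after their values were seen.

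**Figure D3:**
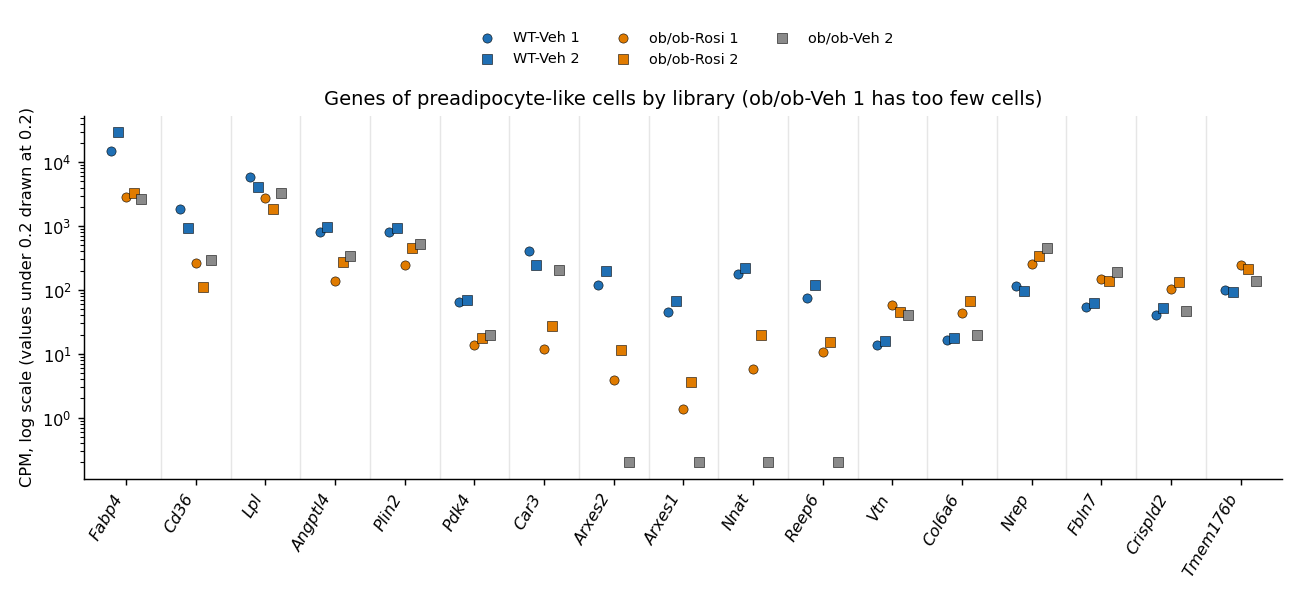
CPM on a log axis (vertical) of 17 genes (horizontal) in preadipocyte-like cells, with 1 point per library of at least 20 such cells. In the genes from Fabp4 to Reep6 both ob/ob-Rosi points lie below both WT-Veh points (Fabp4 2855 and 3300 against 14980 and 29540 CPM), and in those from Vtn to Tmem176b they lie above.

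Transcripts of mature adipocytes moved with the groups in this class. Of 12 adipocyte genes tested, 10 were lower in ob/ob-Rosi without overlap, beside 14.0% of all genes, with a median log2 fold change of −2.64 and a summed level of 675 and 560 CPM in WT-Veh against 79.9 and 168 CPM in ob/ob-Rosi. The cluster led by Fabp4 and Nnat was kept in these values. Adipoq stood at 9.75 and 42.7 CPM against 0.832 and 1.67 CPM. The part of this RNA in the low PPAR targets was not tested, and several genes, Adipoq among them, stand in both lists.

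Among the genes higher in the preadipocyte-like cells of ob/ob-Rosi, Vtn, the adhesion protein vitronectin, stood at 13.7 and 15.6 CPM against 59.0 and 45.9 CPM (log2 1.83, SE 0.337, adjusted p = 0.337). Nrep stood at 114 and 97.8 CPM against 251 and 334 CPM (log2 1.46), Fbln7, a fibulin, at 54.6 and 62.6 CPM against 150 and 139 CPM (log2 1.30), and Col6a6, a collagen VI chain, at 16.6 and 17.8 CPM against 43.7 and 67.1 CPM (log2 1.67). Crispld2 (log2 1.31), Cxcl9, an interferon-induced chemokine (2.10), and the membrane proteins Tmem176a (1.72) and Tmem176b (1.26) completed the group. Among 48 matrix genes other than collagens, 22 were higher and 8 lower without overlap, with a median of 0.28, where 14.6% and 14.0% of all genes were higher and lower. Of 24 collagens, 6 were higher and 3 lower. Dcn, the proteoglycan decorin, stood at 7078 and 8948 CPM against 14410 and 15020 CPM (log2 0.87). Ribosomal protein genes were higher without overlap in 26 of 79 and lower in 0, with a median log2 fold change of 0.20 that was 0.00 without WT-Veh 1. Of 13 MHC class I genes, 7 were lower and 0 higher (median −0.59).

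Progenitor-like cells stand for the Pi16 and Dpp4 expressing cells from which preadipocytes arise. Both genes were among the markers that named the class, and Pi16 stood at 3187 to 5950 CPM in the 4 libraries against 45.8 to 407 CPM in their preadipocyte-like cells. The name is less firm in some clusters, since the largest, led by Il34 and Akr1c18, had 2 of 12 markers raised at least 2-fold over other stromal clusters and the one led by Mrgprg and Daglb had 0. No gene of 12283 was called (21 by DESeq2, and 1.75% higher with an unadjusted p under 0.05 and 1.79% lower), and WT-Veh 1 held 125 of these cells against 1955, 872 and 3284 in WT-Veh 2 and ob/ob-Rosi 1 and 2. A cluster led by Bmp3 and Col12a1 held 86.4% of those of WT-Veh 1 and 77.8% of those of ob/ob-Rosi 1, and the clusters led by Mrgprg and by Il34 held 45.2% and 54.4% in WT-Veh 2 and 39.1% and 60.4% in ob/ob-Rosi 2. Among the genes lower in ob/ob-Rosi, Sbno2, a transcriptional cofactor downstream of STAT3, stood at 140 and 152 CPM in WT-Veh, 55.2 and 46.3 CPM in ob/ob-Rosi and 98.9 and 126 CPM in ob/ob-Veh (log2 −1.51, SE 0.2501, adjusted p = 0.366). Socs3, the feedback inhibitor of STAT3, stood at 232 and 367 CPM, 110 and 93.4 CPM, and 336 and 318 CPM in the same order (log2 −1.55, SE 0.304, adjusted p = 0.567). Ccl7, a monocyte attractant, stood at 299 and 210 CPM, 94.7 and 81.0 CPM, and 283 and 298 CPM (log2 −1.49). In these 3 genes ob/ob-Rosi was the lowest group, and for Ccl7 and Socs3 the ob/ob-Veh libraries lay within the range of WT-Veh. Of the progenitor-like cells of ob/ob-Veh 1 and 2, 99.4% and 97.1% lay in a cluster led by Il6, Cxcl10 and Ptgs2. The ob/ob-Veh values of this class are thus mostly those of that cluster. A stromal cluster led by Il1r2, with 1739 and 1822 cells of ob/ob-Veh, was left unnamed and does not enter these values.

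Hsd11b1, which makes active glucocorticoid from its inert form, stood at 199.5 and 159.9 CPM against 56.0 and 55.9 CPM, with 40.9 and 69.1 CPM in ob/ob-Veh (log2 −1.64, SE 0.288, adjusted p = 0.366). Fgl2 (log2 −1.51), Serpina3c, a serpin (−1.65), Daglb, a diacylglycerol lipase (−1.81), and Pim1, a kinase induced by STAT signals (−1.22), also lay lower without overlap. Of 9 tested genes of leptin and STAT3 signalling, 5 were lower without overlap and 1 higher, with a median of −0.68 that was −0.26 without WT-Veh 1, where 13.8% and 13.3% of all genes were lower and higher. Stat3 itself stood at 209 and 149 CPM against 113 and 98.9 CPM (log2 −0.70). Of 35 TNF and NF-κB genes, 12 were lower and 1 higher (median −0.23, and −0.05 without WT-Veh 1). Ptgs2, the prostaglandin synthase COX-2, stood at 880 and 904 CPM in WT-Veh, 465 and 534 CPM in ob/ob-Rosi and 2106 and 2246 CPM in ob/ob-Veh (log2 −0.80), and Cxcl1, a neutrophil chemokine, at 651 and 694 CPM against 401 and 509 CPM (log2 −0.53). Ptgs2 was among the leading genes of the cluster that held most ob/ob-Veh cells of this class.

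Immediate early genes, which tissue digestion is known to induce, moved with these genes. Of 30 tested, 13 were lower without overlap and 2 higher, beside 13.8% and 13.3% of all genes, with a summed level of 18880 and 23000 CPM in WT-Veh, 15900 and 16190 CPM in ob/ob-Rosi and 29810 and 30910 CPM in ob/ob-Veh. Fos stood at 2609 and 3616 CPM in WT-Veh against 2448 and 2587 CPM in ob/ob-Rosi (log2 −0.28, and 0.02 without WT-Veh 2), and Junb and Egr1 had log2 fold changes of −0.50 and −0.27. The part of the digestion response in the low inflammatory genes was not tested.

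Among the genes higher in progenitor-like cells of ob/ob-Rosi, Crip1, a LIM-domain protein, stood at 1092 and 911 CPM in WT-Veh, 2427 and 2624 CPM in ob/ob-Rosi and 1072 and 1180 CPM in ob/ob-Veh (log2 1.37, SE 0.295, adjusted p = 0.806). Hspb1, a small heat shock protein, stood at 120 and 106 CPM, 247 and 297 CPM, and 79.9 and 47.3 CPM (log2 1.31). Both were thus highest in ob/ob-Rosi of the 3 groups, as were Emp3 (log2 1.07), S100a1, a calcium-binding protein (0.98), Uqcc2, an assembly factor of respiratory complex III (1.01), and Ndufa1, a subunit of complex I (1.01). Tppp3 (1.47) overlapped with ob/ob-Veh, and Mgp, an inhibitor of calcification and a marker of another stromal class, stood at 6.23 and 16.6 CPM against 71.8 and 39.8 CPM (log2 2.00). Of 76 nuclear genes of oxidative phosphorylation tested, 38 were higher without overlap and 0 lower, beside 13.3% and 13.8% of all genes, with a median of 0.38 that was 0.11 without WT-Veh 1 and 0.71 without WT-Veh 2. Against the same shares, ribosomal protein genes were higher in 17 of 79 and lower in 0, and their median turned from 0.26 to −0.10 without WT-Veh 1. The PPAR targets lay near the rest of the genes in this class, with 9 of 43 lower, 4 higher and a median of −0.17.

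**Figure D4:**
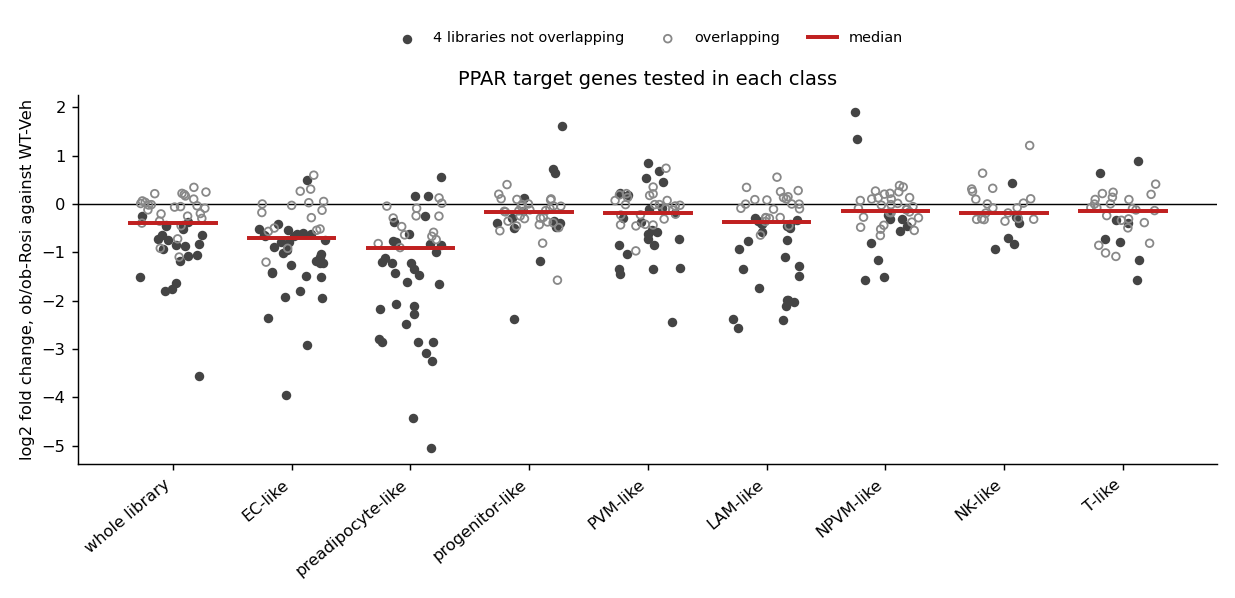
Log2 fold change of ob/ob-Rosi against WT-Veh (vertical axis) of each tested PPAR target gene in whole libraries and in 8 classes (horizontal axis), filled where the 4 libraries do not overlap, with the median as a red line. Medians lie lowest in preadipocyte-like (−0.90) and EC-like cells (−0.71), and nearer 0 in whole libraries (−0.40), LAM-like (−0.38) and progenitor-like cells (−0.17).

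LAM-like cells, macrophages led by Trem2, Gpnmb and Mmp12 that take up lipid from dying adipocytes, had 0 called genes of 11361 (4 by DESeq2, and 1.15% higher with an unadjusted p under 0.05 and 2.44% lower). All of them lay in 1 cluster at the clustering resolution used. At resolution 2 a cluster with a median of 1509 UMIs held 506 cells of WT-Veh 1 and 0, 2 and 0 of WT-Veh 2 and ob/ob-Rosi 1 and 2, while the other LAM-like cluster held 212, 357, 666 and 696, so that most such cells of WT-Veh 1 stood apart. In ob/ob-Veh 2, 9 such cells were found, and that library was dropped from the fit. Angptl4 stood at 186 and 144 CPM in WT-Veh, 34.2 and 42.8 CPM in ob/ob-Rosi and 45.4 CPM in ob/ob-Veh 1 (log2 −2.02, SE 0.285, adjusted p = 0.493, edgeR). Of 46 PPAR targets tested, 24 were lower without overlap and 0 higher, against 19.4% and 10.9% of all genes, with a median of −0.38. Fabp4 stood at 4346 and 4580 CPM against 2594 and 1876 CPM (log2 −0.93). Arg1, the arginase of alternatively activated macrophages, stood at 44.7 and 67.4 CPM against 9.13 and 24.97 CPM (log2 −1.66). Car3 (log2 −3.10) and Rbp7 (log2 −2.42), transcripts of adipocytes and endothelium, varied widely within WT-Veh, at 91.5 and 26.4 CPM and at 92.8 and 20.7 CPM.

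MHC class II genes, which present antigen, were higher without overlap in 6 of 10 tested in LAM-like cells and lower in 0, beside 10.9% and 19.4% of all genes, with a median of 0.64 that was 0.49 without WT-Veh 1. H2-Ab1 stood at 908 and 1205 CPM in WT-Veh, 2024 and 1827 CPM in ob/ob-Rosi and 2794 CPM in ob/ob-Veh 1 (log2 0.93), H2-Aa had a log2 fold change of 0.65, and the invariant chain Cd74 one of 0.64. Ccl4, a chemokine, stood at 42.6 and 65.4 CPM against 264 and 110 CPM (log2 1.84). Pf4 (log2 1.05), Wfdc17 (0.99), Tppp3 (1.52) and the matrix gene Mfap5 (1.44) were also higher without overlap. PVM markers were higher in 7 of 15 and lower in 1 in these cells, with a summed level of 6042 and 7911 CPM against 11100 and 11590 CPM. Cell cycle genes were lower in 14 of 24 and higher in 0, in a class where 19.4% of all genes were lower, with a median of −0.79 that was −0.27 without WT-Veh 1, and Stmn1, a tubulin regulator of dividing cells, stood at 152 and 205 CPM against 112 and 118 CPM (log2 −0.57). The cycling-like cluster, a class of its own, held 12 and 32 cells of WT-Veh and 107 and 186 of ob/ob-Rosi, whereas at resolution 2 it held 85 and 116 against 143 and 242, and the part of that split in the lower cell cycle genes was not tested. Over whole libraries the summed cycling markers stood at 205 and 166.5 CPM against 168 and 167 CPM.

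PVM-like cells, the resident macrophages along vessels, carried more matrix RNA in ob/ob-Rosi, with 0 of 12357 genes called (52 by DESeq2, and 2.59% higher with an unadjusted p under 0.05 and 1.31% lower). Collagen genes were higher without overlap in 17 of 19 tested and lower in 0, where 13.4% and 12.6% of all genes were higher and lower, and their summed level was 374 and 259 CPM in WT-Veh, 1096 and 939 CPM in ob/ob-Rosi and 2750 and 2093 CPM in ob/ob-Veh. Col3a1, a fibrillar collagen, stood at 122 and 72.2 CPM against 517 and 359 CPM (log2 2.19, SE 0.339, adjusted p = 0.331). Lum, the proteoglycan lumican, stood at 13.3 and 9.26 CPM against 73.0 and 42.1 CPM (log2 2.38), and Igfbp5, which binds insulin-like growth factors, at 23.4 and 16.2 CPM against 69.0 and 57.0 CPM (log2 1.70). Dcn, Col6a1, Col1a2 and Sparc had log2 fold changes of 1.59, 1.52, 1.21 and 1.11. Other matrix genes were higher in 35 of 44. Markers of the stromal progenitor lineage moved with them, since all 10 were higher, with a summed level of 977 and 1110 CPM against 2298 and 2419 CPM in ob/ob-Rosi and 6840 and 6416 CPM in ob/ob-Veh. Collagens summed to 11740 to 63360 CPM in the preadipocyte-like and progenitor-like cells of the 4 libraries, and the part of their RNA in the result was not tested. Angptl4 stood lower here too, at 62.7 and 50.2 CPM against 17.1 and 26.7 CPM (log2 −1.33, adjusted p = 0.482).

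**Figure D5:**
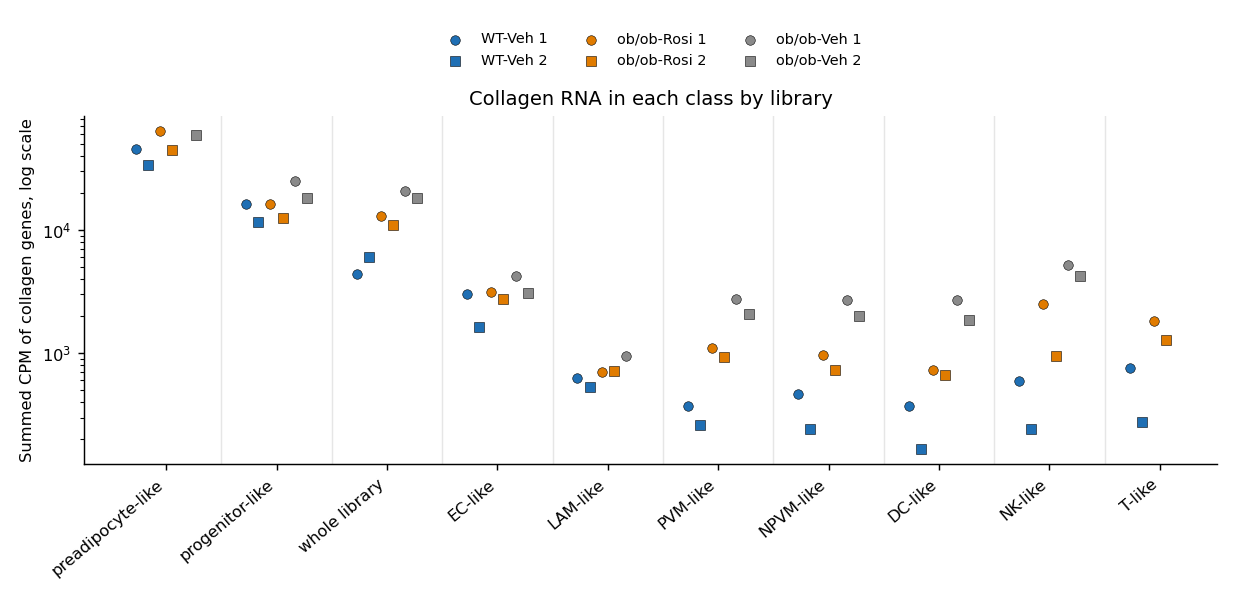
Summed CPM of the collagen genes on a log axis (vertical) in whole libraries and in 9 classes (horizontal), with 1 point per library of at least 20 cells of the class. In PVM-like cells the groups are in the order WT-Veh (374 and 259 CPM), ob/ob-Rosi (1096 and 939) and ob/ob-Veh (2750 and 2093), the groups keep this order in the other immune classes where they have points, and in preadipocyte-like and progenitor-like cells WT-Veh and ob/ob-Rosi overlap.

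The same order of the labels was seen in other immune classes that had ob/ob-Veh values. T-like cells had none, since ob/ob-Veh 1 and 2 held 4 and 6 such cells and were dropped from the fit. Non-perivascular macrophage-like (NPVM-like) cells had collagens higher without overlap in 11 of 18 tested and lower in 2, with a summed level of 464 and 243 CPM in WT-Veh, 962 and 735 CPM in ob/ob-Rosi and 2693 and 2003 CPM in ob/ob-Veh, where 15.1% and 16.8% of all genes were higher and lower. Collagens were higher in 11 of 12 tested in T-like cells, 10 of 12 in NK-like cells and 9 of 12 in DC-like cells, beside 8.68%, 10.0% and 13.4% of all genes, and lower in 0, beside 16.4%, 11.9% and 16.3%. Col3a1 stood at 240 and 76.9 CPM against 926 and 543 CPM in T-like cells, at 200 and 86.7 CPM against 1246 and 396.5 CPM in NK-like cells (log2 2.61), and at 111 and 54.8 CPM against 357 and 258 CPM in DC-like cells (log2 2.16). Most T-like cells of WT-Veh 1 (94.6%) lay in a cluster led by Satb1, Lef1 and Ccr7, and most of those of WT-Veh 2 (88.1%) and ob/ob-Rosi 1 and 2 (62.2% and 64.2%) in one led by Ccl5 and Nkg7. NK-like cells of WT-Veh 1 and ob/ob-Rosi 1 lay mostly in a cluster led by Klrc2 and Txk (92.6% and 82.9%). Those of WT-Veh 2 and ob/ob-Rosi 2 lay mostly in one led by Gzma and Ccl5 (90.9% and 84.1%). The name is less firm in the former, with 4 NK markers detected against 9 and a median of 1016 UMIs against 2268. Cd28, a T cell marker, was among its leading genes. Lum in NK-like cells stood at 24.99 and 8.33 CPM against 218 and 43.0 CPM (log2 3.41, from 20 UMIs in WT-Veh and 110 in ob/ob-Rosi). Neither edgeR nor DESeq2 called a gene (0 each) in T-like, NK-like, DC-like or B-like cells. At an unadjusted p under 0.05, 1.05% of the genes tested were higher and 0.513% lower in T-like cells, 1.53% and 0.212% in NK-like cells, 1.61% and 1.62% in DC-like cells, and 2.73% and 1.20% in B-like cells.

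The only called genes outside EC-like cells were 3 T cell genes in NPVM-like cells (0.0286% of the 10492 tested, all lower), where 1.98% of all genes were higher at an unadjusted p under 0.05 and 3.57% lower. Trbc2, the constant region of the T cell receptor beta chain, fell from 74.9 and 52.0 CPM in WT-Veh to 3.85 and 5.14 CPM in ob/ob-Rosi (log2 −3.69, SE 0.415, adjusted p = 0.0186, edgeR), with 1.39 and 4.56 CPM in ob/ob-Veh. Cd3d, a chain of the same receptor complex, fell from 45.6 and 26.8 CPM to 1.79 and 3.37 CPM (log2 −3.60, adjusted p = 0.0468), and Cd27, a costimulatory receptor, from 36.5 and 21.3 CPM to 3.08 and 2.84 CPM (log2 −3.12, adjusted p = 0.04). All 12 tested markers of T cells were lower, in a class where 16.8% of all genes were lower without overlap, with a summed level of 592 and 263 CPM in WT-Veh, 23.3 and 47.2 CPM in ob/ob-Rosi and 18.04 and 41.05 CPM in ob/ob-Veh. The share of T-like cells was highest in the same WT-Veh libraries (17.39% and 4.71%), and the part of free or doublet T cell RNA in these calls was not tested. With doublets removed 1 of them was called, and 0 were with cells thinned to 700 UMIs, with cells assigned singly, without ob/ob-Rosi 1 or with only the 4 compared libraries in the fit. In DC-like cells Trac, the alpha chain, stood at 117 and 26.2 CPM against 1.14 and 3.59 CPM (log2 −4.19), which rests on 5 UMIs in ob/ob-Rosi and 50 in WT-Veh (ratio of WT-Veh to ob/ob-Rosi 14.8, exact 95% interval 5.93 to 47.5, counting error only).

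B-like cells lay in different clusters: one led by Ms4a1 and Ighd, a marker of naive B cells, held 99.7% of the 1868 in WT-Veh 1 and 70.5% of the 78 in ob/ob-Rosi 1, and another led by Igkc, Ighm and Mzb1 held 97.3% of the 113 in WT-Veh 2 and 98.6% of the 74 in ob/ob-Rosi 2. Of all genes tested, 7.29% were higher and 25.7% lower without overlap. Xbp1, the transcription factor of antibody-secreting cells, stood at 63.7 and 10.2 CPM in WT-Veh against 514 and 63.7 CPM in ob/ob-Rosi (log2 3.16, adjusted p = 0.636). It rests on 2 UMIs in WT-Veh 2 and 5 in ob/ob-Rosi 2, and ob/ob-Rosi 2 stood level with WT-Veh 1.

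Over whole libraries, which mix changes of cell number with changes of RNA per cell in a way that cannot be told apart, 0 of 15779 genes were called (215 by DESeq2, and 2.70% higher with an unadjusted p under 0.05 and 3.53% lower). Among the genes higher in ob/ob-Rosi, Lum stood at 93.4 and 111 CPM in WT-Veh and 526 and 347 CPM in ob/ob-Rosi (log2 2.13, SE 0.297, adjusted p = 0.639), Nrep at 12.1 and 14.1 CPM against 56.7 and 68.4 CPM (log2 2.30), Fbn1, the microfibril protein fibrillin, at 163 and 213 CPM against 621 and 618 CPM (log2 1.77), Mmp3, a matrix protease, at 72.3 and 58.6 CPM against 301 and 178 CPM (log2 1.92), and Col3a1 at 1265 and 1374 CPM against 5133 and 3236 CPM (log2 1.70). Collagens were higher without overlap in 20 of 26 and lower in 0, with a median of 1.13 (0.89 without WT-Veh 1), where 15.2% and 16.1% of all genes were higher and lower. On the lower side, Il2rb, the beta chain of the interleukin-2 receptor, stood at 66.4 and 59.5 CPM against 12.2 and 21.8 CPM (log2 −1.83), and Ms4a4b and Cd27 had log2 fold changes of −2.63 and −2.62. Naive lymphocyte genes were lower in 9 of 13, with a median of −4.17 that was −0.68 without WT-Veh 1, and Satb1, a chromatin organizer of T cells, stood at 455 and 23.9 CPM against 13.3 and 12.0 CPM. PPAR targets were lower without overlap in 22 of 49 and higher in 0 (median −0.40), and Angptl4 stood at 346 and 458 CPM against 108 and 165 CPM (log2 −1.51), with 141 and 138 CPM in ob/ob-Veh. MHC class I genes were lower in 10 of 13 and higher in 0 (median −0.44).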

How the data were processed

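Single-cell RNA libraries of the iWAT SVF were analysed. The authors sequenced 10x 3′ v3.1 libraries and, per the labels, used bcl2fastq 2.19.1.403 and Cell Ranger 3.0.2 with mm10. They deposited UMI counts for 31053 genes per barcode, without normalization. Correction for free RNA and removal of doublets are not given in the sources used here.

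Kept cells of 6 iWAT libraries (68482) were clustered with scanpy 1.11.5 (2000 variable genes, 25 components, 20 neighbours, Leiden resolution 1, no integration), subclustered within lineages, and named from marker lists (at least 3 markers). Doublets were kept, and an alternative removed the 7.74% to 14.0% of cells with the highest doublet scores in the 4 compared libraries. UMIs were summed per library and class (at least 20 cells) and fitted with edgeR 4.0.16 (TMM, filterByExpr) in R 4.3.3. Non-overlap was judged on plain CPM. DESeq2 1.42.0, other scalings, no filter, cells thinned to 700 UMIs and each library left out were alternatives. Scripts were tested on simulated data. Of 2-fold changes, 1.02% were recovered in whole libraries and 11.6% in EC-like cells, and of 4-fold changes 43.3% and 77%. False calls numbered 10 in whole libraries, 6 in EC-like and 13 in PVM-like cells. An absence of calls therefore does not show that genes were unchanged. The GEO labels call the libraries biological replicates. Positions are from GENCODE for GRCm38.

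Genes named are the called ones, those with the lowest p per class that reached 50 CPM in a group without overlap (up to 8 per direction), and up to 3 abundant members per list, of which the text gives a part. Names outside it are stated. The members and gene lists were chosen with earlier results of these data known. A few genes that this rule takes are not reported here.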

Additional observations from a re-analysis of the deposited data

How the results depend on the processing

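Counts of called genes differed between the alternatives. DESeq2 called 215 genes in whole libraries, 21 in progenitor-like, 26 in preadipocyte-like, 177 in EC-like, 52 in PVM-like, 4 in LAM-like and 55 in NPVM-like cells. With no filter on low counts the numbers were 161, 75, 161, 463, 195, 121 and 183 in the same order, with 14 in DC-like, 12 in T-like, 14 in NK-like and 25 in B-like cells. With only the 4 compared libraries, EC-like and NPVM-like cells had 0 calls. With cells thinned, preadipocyte-like, EC-like and NPVM-like cells had 2, 6 and 0 calls, with cells assigned singly 1, 58 and 0, and with doublets removed EC-like and NPVM-like cells had 10 and 1. Scaling by library size alone gave 1 in NPVM-like and 1 in B-like cells, and keeping stromal clusters led by macrophage genes (added after seeing the data) gave 10 in preadipocyte-like cells. The causes of these differences were not tested.

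Replicate numbers are shared by the labels, but nothing in them says that the numbers pair the libraries, and only 2 pairs exist. Deviations of same-numbered WT-Veh and ob/ob-Rosi libraries correlated across genes at 0.665 in whole libraries, those of WT-Veh and ob/ob-Veh at -0.077 and those of ob/ob-Rosi and ob/ob-Veh at -0.197. The values varied by class. In the same order they were 0.352, 0.203 and 0.146 in EC-like cells and 0.747, 0.21 and 0.187 in progenitor-like cells. In NPVM-like cells they were 0.632, -0.125 and -0.098. With the replicate block, 11 genes were called in progenitor-like, 403 in preadipocyte-like, 98 in EC-like, 171 in LAM-like, 40 in NPVM-like, 8 in DC-like, 31 in T-like and 3 in B-like cells, the NK-like cell number difference turned to 0.12 and Gpihbp1 in EC-like cells to 0.16. With the replicate block and only the 4 compared libraries (added after seeing the data), 163 genes were called in progenitor-like, 408 in preadipocyte-like, 0 in EC-like, 192 in PVM-like, 176 in LAM-like, 282 in NPVM-like, 68 in DC-like, 31 in T-like, 72 in NK-like and 6 in B-like cells.

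Leaving out each library in turn, with a lone library assumed to vary like the others, gave 0 to 607 calls in whole libraries, 0 to 4 in progenitor-like, 6 to 49 in preadipocyte-like, 1 to 601 in EC-like, 0 to 79 in PVM-like, 4 to 405 in LAM-like, 0 to 647 in NPVM-like, 1 to 539 in DC-like, 0 to 261 in T-like, 2 to 46 in NK-like and 0 to 37 in B-like cells. The most came without WT-Veh 2 in whole libraries, EC-like, PVM-like, LAM-like, NPVM-like, DC-like and T-like cells, without WT-Veh 1 in progenitor-like, preadipocyte-like and NK-like cells, and without ob/ob-Rosi 2 in B-like cells. The log2 difference in cell number ranged from -4.16 to -0.91 in B-like, -0.21 to 2.07 in DC-like, -0.07 to 0.85 in EC-like, 0.01 to 0.83 in LAM-like, -1.40 to 2.31 in NK-like, 0.14 to 2.65 in NPVM-like, -0.12 to 2.29 in PVM-like, -3.10 to -1.22 in T-like, 1.33 to 3.85 in preadipocyte-like and -0.52 to 4.24 in progenitor-like cells (-0.19 without ob/ob-Rosi 2). Without WT-Veh 2, cell numbers passed the test in 10 of 15 classes: B-like, T-like, NPVM-like, PVM-like, preadipocyte-like, progenitor-like, NK-like (2.31, against -0.51 with all libraries), Fmo2-Myoc-like, cycling-like (3.93) and mural-like (5.23). With named cells as the total, EC-like cells turned to -0.05 and B-like cells to -4.07, and with cells assigned singly DC-like cells turned to -0.23 and cycling-like cells to -0.50. Neutrophil-like cells turned from 0.44 to -2.48 with cells assigned singly and to -0.86 without ob/ob-Rosi 1. Among named genes, the log2 fold change of Fabp4 in EC-like cells ranged from -0.13 (without WT-Veh 1) to 0.82 and was -0.00 without ob/ob-Rosi 1, that of Gpihbp1 in EC-like cells ranged from -0.67 to 1.16 (without WT-Veh 2) and was 0.25 without ob/ob-Rosi 1, and that of Fos in progenitor-like cells ranged from -0.54 to 0.02 (without WT-Veh 2). Depth limits Nepn, Cdh23 and Rdh16 in EC-like, Trac in DC-like and Lum in NK-like cells, which rest on 20 UMIs or fewer in a group. It also limits the ob/ob-Veh values of Hhipl1 in EC-like and of Pdk4 in preadipocyte-like cells.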
